A study of Mus musculus with 10 samples.

Results

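The regions described here are the iCLIP clusters of RBFOX2 that overlapped no gene locus of the matched expression table by even 1 bp, on either strand. They numbered 3134 of 35639 clusters, or 8.79% (exact 95% interval 8.50 to 9.09). The loci were the genomic spans of 26857 gene entries, at 24927 distinct positions on mouse build mm9. A cluster called outside lay outside the loci analysed here, which is a statement on this list of spans and not on transcription at the site. Gene ends named below are the ends of these spans. Whether longer gene models cover any of the clusters was not tested. The intervals on shares were exact binomial intervals and cover counting error only, because all clusters came from 1 library and PCR copies were not shown to be independent molecules.

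The study used V6.5 cells, a mouse embryonic stem (ES) cell line grown on gelatin with ESGRO, a preparation of leukaemia inhibitory factor (LIF). For iCLIP, human RBFOX2 was expressed from a doxycycline-inducible pSLIK Hygro lentivirus, either with a FLAG-HA tag (FHFOX2) or untagged (UntagFOX2), so the protein bound was an added human copy in cells that kept their mouse Rbfox2. Both lines were selected with hygromycin at 150 µg/ml for 6 days, induced with doxycycline at 1 µg/ml for 24 h and crosslinked at 150 mJ/cm2. Each gave 1 library, without a replicate, and the untagged library received 7 PCR cycles beyond the 16 given to both. For RNA-seq, the same cell line was infected with lentiviral hairpins against luciferase (shLuc) or GFP (shGFP) as controls, or against Rbfox2 (shFox2-1, shFox2-2), selected in puromycin at 1 µg/ml for 3 days and released for 24 h. The 2 cultures of a hairpin entered 1 pooled FPKM value (fragments per kilobase of transcript, scaled to library size). The read depth behind the FPKM values and the cluster list is not given in the sources used here.

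RBFOX2 belongs to the Rbfox family of RNA-binding proteins, which recognise GCAUG in RNA and control alternative splicing, often from introns. iCLIP crosslinks a protein to RNA in living cells and sequences the bound fragments, so it sees nuclear precursor RNA as well as mature transcripts. Beyond annotated gene spans, mammalian cells are known to make RNA by transcription that runs on past gene ends, from alternative upstream first exons, and as noncoding RNAs that include primary microRNA transcripts.

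Among the gene IDs that the authors attached to the outside clusters were those of 10 microRNAs, with 1 cluster each. They were Mir485, Mir27a, Mir19a, Mir323, Mir18b, Mir221, Mir673, Mir200c, Mir222 and Mir758, and 9 further microRNA IDs of the 19 in the whole list lay inside loci. MicroRNAs are cut as hairpins from longer primary transcripts, and bases 2 to 8 of the mature strand, the seed, pair with target mRNAs. Mature sequences of these microRNAs, from RefSeq (GRCm38.p6), are shown for the microRNAs these IDs name and the seeds they share. Whether the clusters overlap the hairpins was not tested, since no genome coordinate of RefSeq was used. Capitals mark the seed.
mmu-miR-221-3p: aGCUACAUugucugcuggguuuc
mmu-miR-222-3p: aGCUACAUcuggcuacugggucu
mmu-miR-27a-3p: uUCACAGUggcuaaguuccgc
mmu-miR-19a-3p: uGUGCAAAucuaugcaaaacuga
mmu-miR-18b-5p: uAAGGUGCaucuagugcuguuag
mmu-miR-200c-3p: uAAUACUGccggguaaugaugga
mmu-miR-323-3p: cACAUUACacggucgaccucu
mmu-miR-758-3p: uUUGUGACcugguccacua
mmu-miR-485-3p: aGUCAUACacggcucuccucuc
mmu-miR-673-5p: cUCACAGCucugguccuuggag

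miR-221-3p and miR-222-3p had the same seed, and no other seed was shared among the 17 mature strands found for the 10 microRNAs. GCAUG, searched as those letters on the hairpin strand, occurred in the hairpin of 1 of the 10, Mir221, and in 76 of 1005 mouse hairpins of the RefSeq table (7.56%). The Mir221 hairpin is shown with GCAUG in capitals. It lay in the 5′ part of the hairpin, before the miR-221-5p strand.
Mir221 hairpin: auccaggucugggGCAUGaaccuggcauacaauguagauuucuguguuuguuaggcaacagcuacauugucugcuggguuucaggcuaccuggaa

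The microRNA clusters were short and low in coverage. Their lengths ran from 51 to 66 bp (median 54.0). Coverage is the value the authors gave each cluster under that name, and its unit is not stated in the sources used here. It ran from 150 to 367 for these clusters, with a median of 230.5 against 371 over all outside clusters. Mir485 had the highest coverage, 367 with a fold of 1.64 over the untagged library, and Mir323 the highest finite fold, 2.30 at a coverage of 258. Mir27a stood at 300 and 1.34, Mir19a at 262 and 2.26, Mir18b at 236 and 2.11, and Mir221 at 225 and 2.01. Mir200c and Mir222 each had a coverage of 175 and a fold of 1.56, and Mir758 had 150 and 1.34. Mir673, at a coverage of 175, was the 1 cluster of the 10 with no coverage in the untagged library. The clusters of Mir221 (chrX:18723428-18723481) and Mir222 (chrX:18724022-18724074) lay next to each other on the minus strand, 225088 and 225682 bp from the nearest locus, EG628855. Mir18b was 167 bp from Kis2, and Mir673 was 255 bp past the end of Meg3, a maternally expressed long noncoding RNA listed as Gtl2.

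The interval that starts at Meg3 on chromosome 12 and ends at LOC100040724 held further loci and, between them, 14 outside clusters across 176238 bp, all on the plus strand, which is the strand of Meg3. This imprinted region is known for a long run of maternally expressed noncoding RNAs with many microRNAs. Of the 14, 4 carried the IDs of Mir673, Mir323, Mir758 and Mir485, 4 that of ENSMUSG00000091793 and 6 that of ENSMUSG00000091158. Coverage ran from 150 to 2521 (median 340.5), and 4 clusters had no control coverage. The highest belonged to ENSMUSG00000091158 (chr12:110982162-110982563), with a coverage of 2521 and a fold of 7.50, 3611 bp to the left of LOC100040724. The interval was picked out after its clusters were seen.

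Nearly as many outside clusters lay within 10 kb of a locus, 1510 of 3134 (48.2%), as lay farther off. The median distance to the nearest locus was 10845 bp (95% interval of the median 10044 to 11832), the quartiles were 2935.5 and 33889.5 bp, and the range was 1 to 1739537 bp, where 1 means adjacent bases. Within 1 kb there were 381 clusters (12.2%), from 1 to 5 kb 683 (21.8%), from 5 to 10 kb 446 (14.2%), from 10 to 50 kb 1108 (35.4%) and beyond 50 kb 516 (16.5%). The closest were single clusters of Ddah1 and Espn, each adjacent to its own gene's locus, and of Cox10 and Igf2bp1, each at 8 bp. When loci with a mean FPKM under 1 were disregarded, 12.7% of all clusters were outside and the median distance of those was 28723 bp. Extending every locus by 10 kb on each side left 1624 outside.

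**Figure D1:**
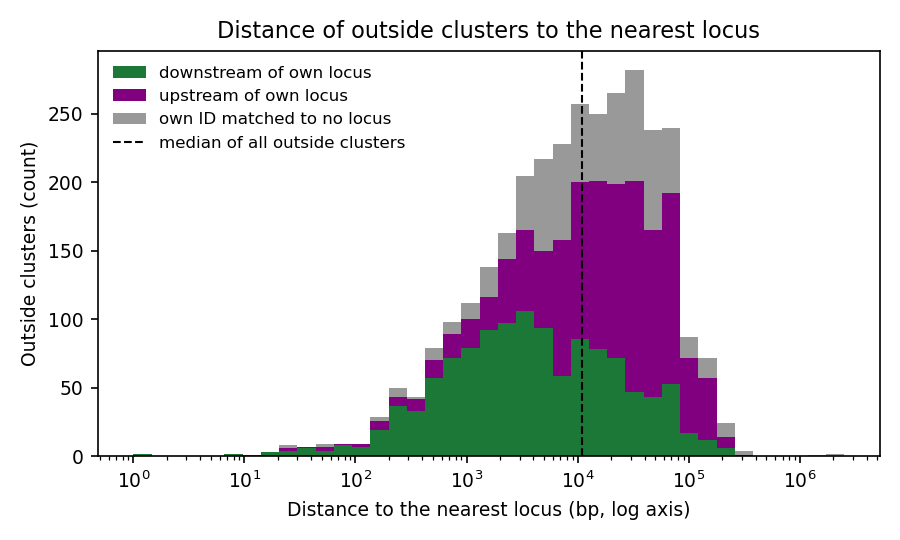
Histogram of the distance from each of the 3134 outside clusters to the nearest locus (x axis, bp, log scale; y axis, number of clusters), coloured by the position relative to the locus of the gene whose ID the cluster carries. The dashed line is the median, 10845 bp; clusters downstream of their own gene fill the left part, where distances are short.

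The nearest locus was on the left of the cluster in 1620 cases (51.7%) and on its right in 1514, so neither side of the chromosome was preferred beyond a few percentage points. Leaving out the 3 gene IDs with the most outside clusters brought the first share to 49.7%. Read along the strand of the nearest gene, 1082 clusters (34.5%) were on the same strand and downstream, 845 (27.0%) on the same strand and upstream, 201 on the opposite strand downstream and 227 on the opposite strand upstream. For 779 the strand of the nearest gene was not known from the tables used. The same-strand counts include the 1686 clusters whose nearest locus was that of the gene named by their own ID, and these share its strand by construction. Among the 1448 nearest to another gene, 241 were on that gene's strand, 428 on the opposite strand, and the remaining 779 are those of unknown strand.

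The gene ID carried by a cluster gave a second way to place it, by the locus of its own gene. Of the 3134, 1196 lay downstream of their own gene's locus (485 IDs), 1255 upstream of it (320 IDs), and 683 carried an ID that matched no locus (245 IDs). The own gene's locus was the nearest for 53.8% of the outside clusters. Downstream clusters were close, with a median of 4217 bp to the own locus (95% interval 3670 to 5030), and upstream clusters far, with a median of 32553 bp (29786 to 36347). Upstream and downstream were read along the strand of the cluster, since no ID in the list had clusters on both strands, and 29 IDs had outside clusters on both sides of their locus. The sources used here do not say how the IDs were assigned.

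The side differed with distance. Within 1 kb of the own locus, 258 of 303 clusters were downstream (85.1%, 80.6 to 89.0). The share was 77.9% within 5 kb, 73.1% within 10 kb and 57.3% within 50 kb. Over all 2451 clusters with an own locus it was 48.8% (46.8 to 50.8), which means that upstream clusters outnumbered downstream ones beyond 10 kb. Leaving out the 3 IDs with the most outside clusters, 2 of which were upstream cases, gave 51.3%.

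**Figure D2:**
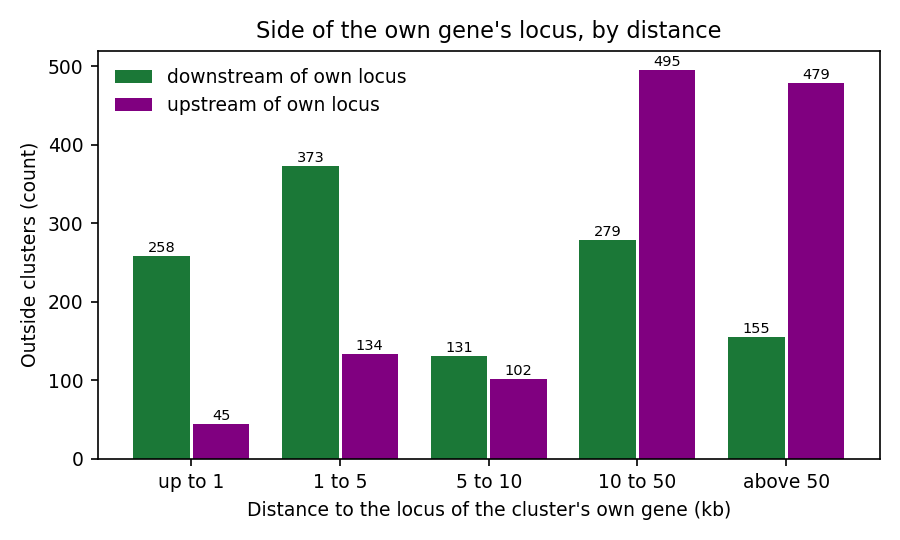
Number of outside clusters downstream (green) and upstream (purple) of the locus of their own gene (y axis), by distance to that locus in kb (x axis). Downstream counts are higher up to 10 kb (258 against 45 within 1 kb), and upstream counts are higher beyond (479 against 155 above 50 kb).

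Within 10 kb downstream of their own locus there were 762 clusters of 436 genes. One of these was Mid1, a microtubule-associated ubiquitin ligase. Its 12 outside clusters were all downstream on the plus strand, 2070 to 14691 bp past the locus end, with coverage from 150 to 674 and no control coverage at 5 of them. Mid1 was well expressed, at 86.5 FPKM in shLuc, 79.5 in shGFP, 94.1 in shFox2-1 and 78.7 in shFox2-2. Lifr, the LIF receptor subunit through which these cells receive the cytokine in their medium, had 6 clusters downstream, 695 to 6110 bp from the locus, and 2 upstream at 3469 and 9069 bp. The strongest, 5530 bp past the end, had a coverage of 1500 and a fold of 13.39, while the folds of the other 7 ran from 1.48 to 3.20. Adam22, a membrane protein of the ADAM family, had 7 downstream clusters, 6 of them 143 to 9410 bp past its locus and 1 farther on, nearer to Sri. The one at 9410 bp reached a coverage of 7200 with a fold of 12.88, against coverages of 325 to 1990 in the other 6.

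Pgs1, a phosphatidylglycerophosphate synthase, showed the reverse arrangement. Its 6 outside clusters were all upstream, 3328 to 7768 bp before the locus, with coverage from 250 to 711. One of these, chr11:117870261-117870345, had a fold of 104.75, the second highest finite fold among outside clusters. That fold rested on a control value, coverage divided by fold, of 4, the smallest among outside clusters. Tied with Pgs1 at 6 clusters within 10 kb were 6 other loci, which included Adam22, Pole4 and Tbl1xr1. Of the 849 loci that had an outside cluster within 10 kb, 494 (58.2%) had 1.

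Some runs were assigned to a neighbour by distance while the IDs named another gene. The locus with the most outside clusters within 10 kb, LOC100039691, had 53, and all carried the ID of Lncenc1, a long noncoding RNA expressed in ES cells. The 8 near Itga2b, an integrin subunit, all carried the ID of Gpatch8, and the 7 near LOC384091 that of Rere, a transcriptional corepressor. The 6 near 2610304G08Rik carried that of Tti1, and the 6 near LOC666795 that of Tmem161b. At 2900092E17Rik, the older name of Pagr1a, 8 clusters 187 to 1867 bp away formed 4 overlapping pairs, and in each pair 1 cluster carried the ID of Pagr1a itself and the other that of Prrt2.

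The outside clusters carried 1021 of the 7740 gene IDs in the list (13.2%). Of these IDs, 443 had 1 outside cluster and 406 occurred at no inside cluster. At the other end, 52 IDs with 10 or more held 899 clusters (28.7%). The 3 IDs with the most, Immp2l, Lncenc1 and Xkr6, held 174 (5.55%). These and the genes in the next paragraphs were singled out after their counts were seen.

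Immp2l, a subunit of the mitochondrial inner membrane peptidase, had 68 clusters spread over 837253 bp upstream of its locus, 52489 to 889676 bp away, which merged to 65 separate regions. Their coverage was mostly low, with a median of 250 and a maximum of 6323, and 34 of the 68 had no control coverage. Its FPKM was 1.40, 1.74, 1.38 and 0.808 in shLuc, shGFP, shFox2-1 and shFox2-2. Xkr6, a member of the XK-related membrane protein family, had 53 clusters and little mRNA. They lay 163371 to 187516 bp upstream of its locus on chromosome 14, and the FPKM was 0.0700, 0, 0.131 and 0.116. The 53 clusters merged to 13 regions. Of the 53, 37 had a coverage of at least 5000, and these fell within 942 bp.

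Lncenc1 was the densest. Its 53 clusters covered 6583 bp (chr13:98260250-98266832, plus strand), which is 8.05 per kb, and overlapped one another so far that they merged to 8 regions. The largest merged region, 1345 bp, held the highest coverage, 28301 with a fold of 3.51. Each of the 53 had coverage in the untagged library, and the folds ran from 1.17 to 6.60 (median 2.50). Lncenc1 matched no locus of the table, and its level is not analysed here. A further stack was that of Slc38a6, an amino acid transporter, whose 16 clusters on chromosome 12 merged to 2 regions within 3222 bp, with coverage from 1148 to 8832.

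**Figure D3:**
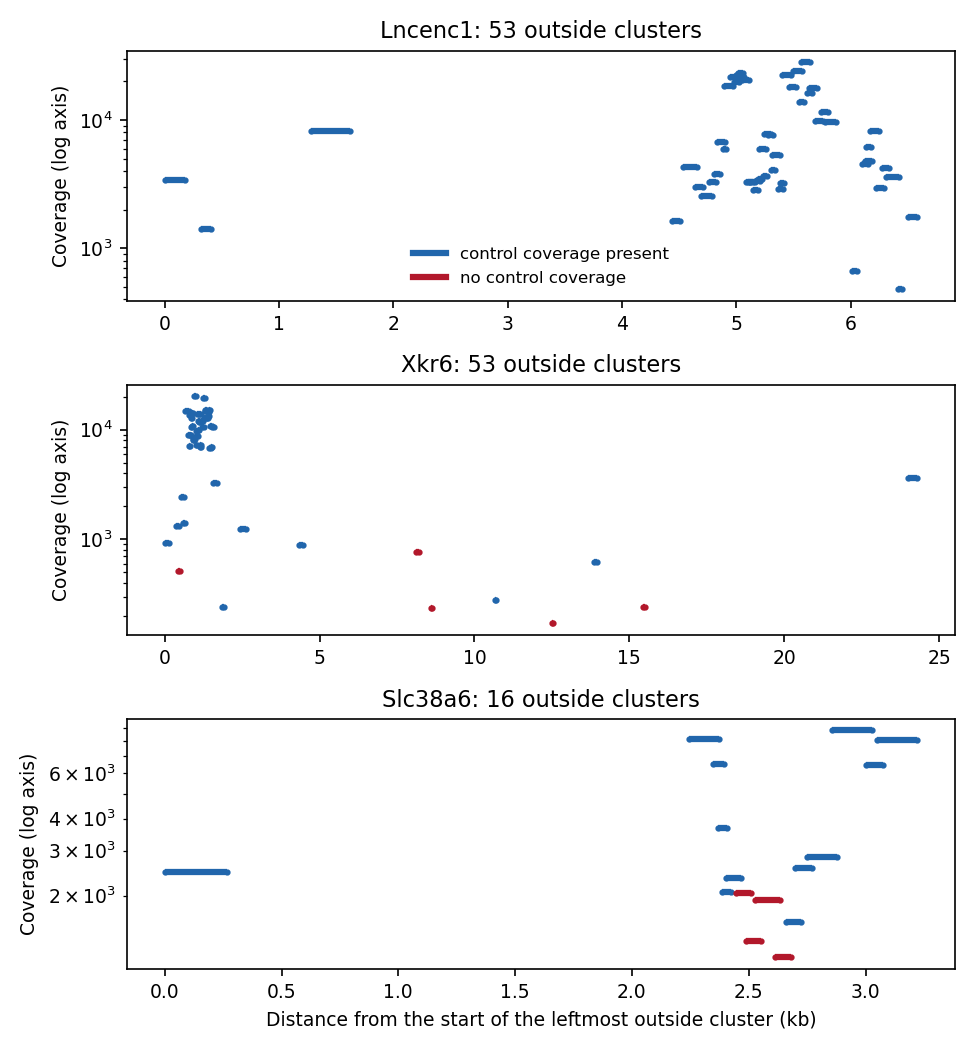
Outside clusters that carry the IDs of Lncenc1, Xkr6 and Slc38a6, each drawn as a bar from its start to its end (x axis, kb from the start of the leftmost cluster) at the height of its coverage (y axis, log scale). Overlapping clusters pile up in narrow stretches; clusters without control coverage (red) number 0 for Lncenc1, 5 for Xkr6 and 4 for Slc38a6.

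Long stretches downstream were found too. Tns3, a focal adhesion protein of the tensin family, had 24 clusters reaching to 168510 bp past the end of its locus. Tbl1xr1, a subunit of a nuclear corepressor complex, had 22 reaching to 67117 bp past that of its own. The loci spanned 64266 bp for Tns3 and 72635 bp for Tbl1xr1, and whether the genes extend beyond them was not tested. Upstream stretches were held by Rere (26), Zbtb20 (26), Ankrd11 (25), Firre (14) and Sox5 (14). Firre, a long noncoding RNA of the X chromosome, had its 14 between 2194 and 62414 bp upstream of the locus. Sox5, a developmental transcription factor, was listed at 0 FPKM in every hairpin, and 13 of its 14 clusters had no control coverage, with coverage values from 167 to 2464. Usp34, a deubiquitinase, had 25 clusters over 144255 bp and matched no locus.

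IDs that matched no locus were 245 of the 1021 and carried 21.8% of outside clusters. Matching was by symbol or synonym, so an ID without a symbol, or a gene listed under another name, also counted as unmatched. Such IDs were carried by 2.71% of inside clusters. A gene that lacks a locus can be inside only within another gene's locus, so a lower share inside can follow from the rule. Whether the inside ones lay in their own gene's locus was not tested. Of the 683 outside clusters with unmatched IDs, 340 carried protein-coding IDs (87 IDs) by the biotype in the RefSeq table. A further 126 carried long noncoding RNA IDs (49 IDs) and 10 microRNA IDs, and 193 had no biotype (90 IDs). The long noncoding group had the higher coverage, with a median of 1516 against 391 for the protein-coding group, and the lower share without control coverage, 29.4% (21.6 to 38.1) against 45.9% (40.5 to 51.3). Both differences rested on Lncenc1, which held 53 of the 126. The other 73 had a median coverage of 327 and a share of 50.7% (38.7 to 62.6).

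For the 776 IDs that did match a locus, 667 (86.0%) had a mean FPKM of at least 1, against 47.4% of all entries. Their loci were longer than most, with a median of 35940.5 bp against 12737 bp over all distinct loci. The median FPKM of those at or above 1 was 7.85, close to the 7.87 over all such entries. In contrast, 12 were listed at 0 in every hairpin. Expression and locus length were not compared with those of IDs at inside clusters, so neither is shown to be particular to these IDs.

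Coverage and fold of the outside clusters were close to those of the rest. Median coverage was 371 outside and 375 inside, the highest was 81548 outside and 202869 inside (a cluster of Uri1), and the median length was 90 against 91 bp. No control coverage was found at 1391 outside clusters (44.4%, 42.6 to 46.1) and at 44.9% (44.4 to 45.5) of inside clusters. Where the fold was finite, its median was 3.37 outside and 3.70 inside. A coverage of 10000 or more was reached by 89 outside clusters (2.84%, 2.29 to 3.48) and by 2.41% of inside ones (2.24 to 2.58), and those intervals overlapped. For the 615 IDs with clusters of both kinds, the cluster of highest coverage was an outside one in 243 (39.5%), and outside clusters made up 36.3% of their clusters. The first share counts IDs and the second pools clusters over IDs, so they are not a like comparison. All clusters came from 1 library and were not replicates, so no test was made.

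Within the outside set, the share without control coverage moved with distance to the nearest locus. It was 33.3% (28.6 to 38.3) within 1 kb, 41.1% (37.4 to 44.9) from 1 to 5 kb, 40.1% (35.6 to 44.8) from 5 to 10 kb, 50.2% (47.2 to 53.2) from 10 to 50 kb and 48.1% (43.7 to 52.5) beyond. The median finite fold was 2.69 within 1 kb and 4.14 beyond 50 kb. Downstream clusters within 10 kb of their own locus were at the low end, with 34.4% (31.0 to 37.9) lacking control coverage and a median fold of 2.69, against 49.5% and 3.53 for those farther downstream. Upstream clusters showed 46.6% (40.7 to 52.6) within 10 kb and 48.8% (45.6 to 52.0) beyond, and these intervals overlapped. Without the 3 IDs with the most clusters the shares by distance were 33.5%, 41.0%, 45.1%, 50.3% and 52.8%, in order of distance. The untagged library had 7 more PCR cycles and no replicate, and the part of either in these shares was not tested.

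**Figure D4:**
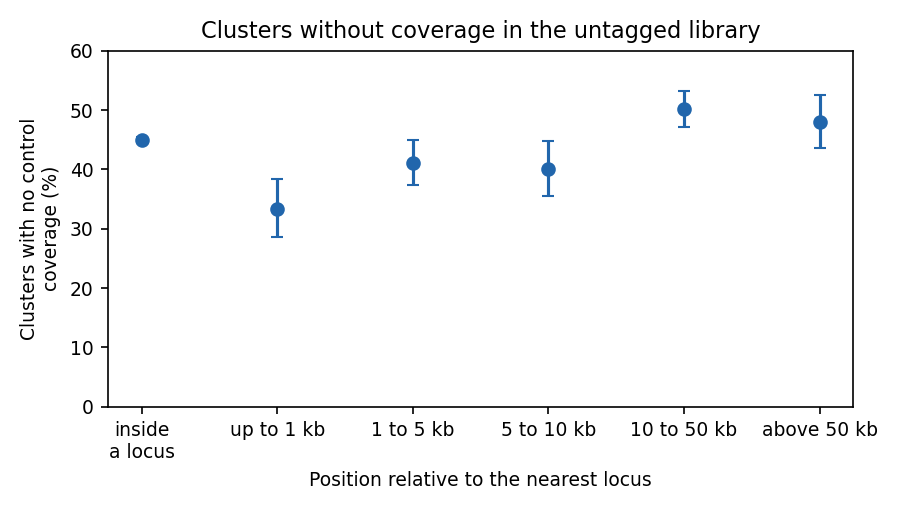
Percentage of clusters with no coverage in the untagged library (y axis) inside loci and at 5 ranges of distance to the nearest locus (x axis); points are shares and bars are exact 95% intervals for counting error. The share is lowest within 1 kb, 33.3%, and 50.2% at 10 to 50 kb, against 44.9% inside loci.

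The outside cluster of highest coverage carried the ID of Gm13054, on chromosome 4 (chr4:147377352-147377934, minus strand), with a coverage of 81548 and a fold of 5.21. A second cluster of that ID overlapped it, with 37481 and 3.81, and both were under 2 kb from Nppa, a natriuretic peptide gene on the opposite strand. Gm10069, a long noncoding RNA, followed with 76872 and 3.78 in a single cluster of 1991 bp, the longest outside cluster, 1482 bp from Fkbp4. Tln2, a talin that links integrins to actin, had 68976 at 12054 bp upstream of its locus, and Ankrd11, a chromatin regulator, 60851 at 54287 bp upstream. Zfp516, a zinc finger protein, had 59728 at 2183 bp upstream. The next were ENSMUSG00000085200 with 45786, Pla2g5, a secreted phospholipase, with 36338 at a fold of 16.41, ENSMUSG00000074303 with 30200, and Lncenc1. Of the 10, 6 carried an ID that matched no locus, and the other 4 were upstream of their own gene's locus. All 10 had control coverage, with folds from 3.51 to 16.41.

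The highest finite folds belonged to clusters of modest coverage. Hells, a chromatin-remodelling helicase, led with a fold of 141.75 at a coverage of 567, 2034 bp downstream of its locus, and its other outside cluster had a fold of 4.39. Pgs1 (104.75), ENSMUSG00000086461 (103.41), Gfpt1 (100.75) and Atxn7l1 (100.00) followed. For Hells, Pgs1, Gfpt1 and Atxn7l1, coverage divided by fold gave a control value of 4, the smallest among outside clusters. Their folds thus rested on very little control coverage. Gfpt1, the entry enzyme of the hexosamine pathway, and Atxn7l1 had theirs downstream, at 3642 and 10609 bp. The cluster of ENSMUSG00000086461 was 207213 bp from the nearest locus, with a coverage of 2792.

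The clusters farthest from any locus were 3 of ENSMUSG00000086520 on chromosome 1, 1721040 to 1739537 bp from Cntnap5a, a neuronal adhesion protein of the neurexin family. Their coverages were 900, 159 and 150. Next came a cluster of Il1rapl1, a synaptic adhesion protein, 350277 bp upstream of its own locus, and one of Nbea, a neuronal trafficking protein, 326692 bp from 4933417G07Rik. Both had low coverage, 196 and 150, and no control coverage.

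By chromosome, the share of clusters outside loci was 14.0% on X (11.8 to 16.5), 13.0% on 12 (11.3 to 14.9) and 12.3% on 4 (11.0 to 13.7), and 5.05% on 1 (4.32 to 5.86). On chromosome 12, 68 of the 179 outside clusters carried the ID of Immp2l. On X, no ID had more than 14 of the 126.

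Rbfox2 itself, listed as Rbm9, had 51 clusters, of which 50 lay inside its locus and 1 outside. The outside cluster (chr15:76910853-76911009, minus strand) was 1760 bp downstream, with a coverage of 787 and a fold of 1.48. The targeted mRNA stood at 24.7 FPKM in shLuc, 23.3 in shGFP, 8.56 in shFox2-1 and 7.21 in shFox2-2, so the knockdown matched the hairpin labels.

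Of the splicing regulators with a locus, 11 of 51 (21.6%) were the nearest locus within 10 kb of an outside cluster, with 22 clusters in all. Over all distinct loci that share was 3.41%, and over entries with a mean FPKM of at least 1 it was 5.53%. The difference was not tested, and the list was not set against genes that carry RBFOX2 clusters. Of the 22 clusters, 18 were downstream on the gene's own strand and 4 on the opposite strand. Qk, which binds intronic and terminal motifs in RNA and controls splicing and mRNA stability, had 5 clusters 1709 to 3592 bp past its end, with coverage from 525 to 1719 and folds from 1.56 to 7.14. Elavl1, which binds AU-rich mRNA, also had 5. One was its own, 8924 bp downstream with a coverage of 866 and a fold of 7.73, and 4 were on the opposite strand under the IDs of Ccl25 and ENSMUSG00000055951. A further pair with the Elavl1 ID lay nearer to Timm44, the stronger with a coverage of 7323.

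Celf1 had clusters of coverage 782 and 4146 at 1649 and 1882 bp downstream. Hnrnpc, which packages nascent RNA, was the nearest locus of 2, at 465 and 2289 bp. A further cluster with its ID, 7143 bp downstream, lay nearer to LOC667348. Ptbp3, a paralogue of the polypyrimidine tract binding protein, had 2, at 672 and 3009 bp. Single clusters followed Hnrnpk, Khdrbs1, Nova2, Ptbp2 and Rbfox2. That of Hnrnpk was the strongest of these 5, with a coverage of 3262 at a fold of 1.40, 238 bp past the end. That of Ptbp2, the neural polypyrimidine tract binding protein, was 92 bp past the end, with a coverage of 303 and a fold of 1.35.

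Of the pluripotency factors, 3 of 28 (10.7%) were flanked, by 7 clusters. The share was 3.41% over all distinct loci and 5.53% over entries with a mean FPKM of at least 1. Tet1, the 5-methylcytosine dioxygenase of ES cells listed as Cxxc6, had 4, all downstream on its strand, 2979 to 6696 bp past the end. From the nearest to the farthest, their coverage was 8493, 8960, 5721 and 2224 and their fold 1.20, 2.74, 1.35 and 2.32, so they were high in coverage and modest in fold. Lin28b, a let-7 binding protein, had 1 on each side within 10 kb, both without control coverage. Nodal, a TGF-beta family ligand, had 1 at 295 bp downstream with a coverage of 238. Of the long noncoding and small RNA host genes, 3 of 13 (23.1%) were flanked: Miat by 3 clusters, all without control coverage, and Meg3 and Snhg3 by 1 each. The pluripotency and noncoding shares rested on 3 genes each, and their difference from the share over all loci was not tested. Neither was set against genes that carry RBFOX2 clusters.

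In all, 697 expressed genes (mean FPKM of at least 1) were flanked by an outside cluster within 10 kb and tested for a change with Rbfox2 knockdown. By limma on log2(FPKM + 1), 1 of 697 changed at an adjusted p under 0.05. It was also the only gene called among all 12632 tested (0.00792%), so the background is that same gene. That gene was the targeted one, Rbfox2, which fell by 1.50 on the log2(FPKM + 1) scale (SE 0.164, limma adjusted p = 0.0471). The call did not hold with a pseudocount of 0.1 (adjusted p = 0.0573) or without the filter on low values (0.913). The lack of other calls does not show that the other flanked genes were unchanged. At an unadjusted p under 0.05 there were 33 (4.73%), near the background of 4.28%. Of these, 13 were higher (background 1.68%) and 20 lower (background 2.6%). The median log2 difference was -0.0056 over the flanked genes and -0.0089 over all tested. With 1 pooled value a hairpin, these p-values measure the spread between hairpins.

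The count rested on both knockdown hairpins being in the fit. Without shFox2-1, limma called 42 flanked genes (6.03%) against a background of 3.15%, and without shFox2-2 it called 92 (13.2%) against 10.9%. With a lone knockdown hairpin, its spread was taken to equal that of the controls. Without shFox2-2, 62 of the 92 were higher, as were 836 of the 1379 called over all genes. Without shFox2-1, 5 of the 42 were higher, as were 63 of 398 over all genes. The median log2 difference of the flanked genes was 0.11 and -0.12 in these fits, and that of all genes 0.071 and -0.093, so the difference in direction between the hairpins was found over all genes as well.

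Named flanked genes showed both patterns, a shared direction and opposite directions. Ptbp2 was at 22.9 FPKM in shLuc, 19.5 in shGFP, 15.0 in shFox2-1 and 12.0 in shFox2-2, with both knockdown values under both controls, although the authors' bounds of shGFP and shFox2-1 overlapped. Its difference was -0.61 (SE 0.173), unadjusted p = 0.0055 by limma, and it did not pass adjustment over all genes (adjusted p = 1.00). Meg3 was at 42.9, 33.1, 24.5 and 27.4 in the same order, again with both knockdown values lower and with overlapping bounds for shGFP and shFox2-2, and had a difference of -0.52 (SE 0.166, limma adjusted p = 1.00). Tet1 was at 15.3 with shLuc, 15.8 with shGFP, 23.4 with shFox2-1 and 10.4 with shFox2-2. Its controls lay between the knockdown hairpins, and Lifr, Nodal and Qk had the same order. The authors' bounds of both knockdown hairpins were clear of the controls for Tet1. For Qk the bounds of all hairpins overlapped. For Lifr and Nodal those of shFox2-2 overlapped both controls, and for Nodal those of shFox2-1 also overlapped shGFP. Hnrnpk was nearly level, from 101 to 108.

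**Figure D5:**
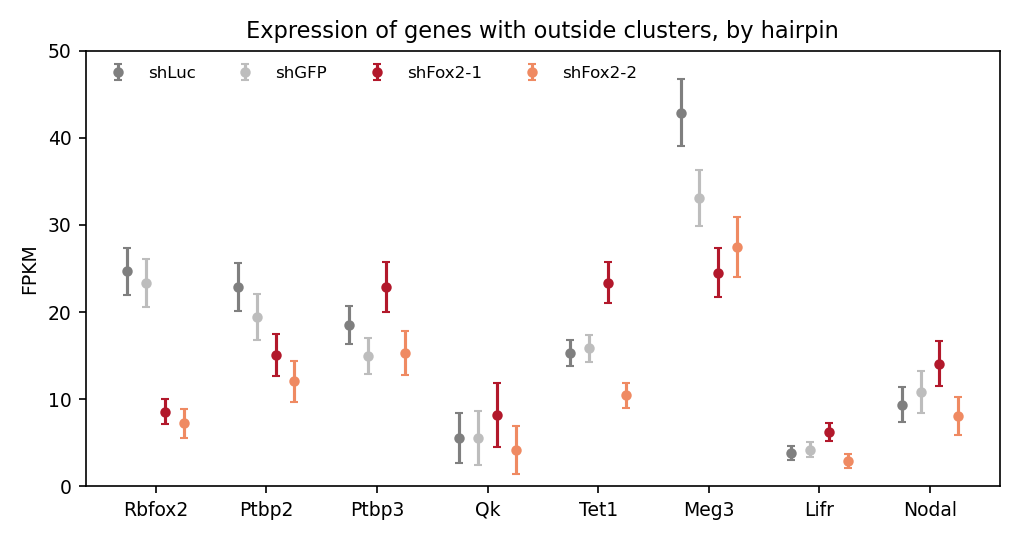
FPKM (y axis) of 8 genes with an outside cluster within 10 kb, for the control hairpins shLuc and shGFP (grey) and the Rbfox2 hairpins shFox2-1 and shFox2-2 (red, orange); bars are the authors' confidence bounds. Rbfox2, Ptbp2 and Meg3 are lower with both Rbfox2 hairpins, and Tet1, Lifr, Nodal and Qk are highest with shFox2-1 and lowest with shFox2-2.

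The cell type label was checked against marker lists. Of 10 ES cell markers, 9 had a mean FPKM of at least 1, with a summed level from 1312 to 1628 across hairpins. The 6 fibroblast markers summed to 4.08 to 4.74, with 2 at that level, and the 5 primitive endoderm markers to 2.75 to 3.57, with 1. The neural markers summed to 42.5 to 52.0, and all 5 found had a mean FPKM of at least 1. The trophoblast markers summed to 42.9 to 78.8, with 3 of 6 at that level and member means from 0.0906 to 25.6. That sum was highest in shFox2-1, as was the ES cell sum. This hairpin also had the highest Tet1, Lifr and Nodal. The part of neural or trophoblast cells in those levels was not tested.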

How the data were processed

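Expression was deposited by the authors as FPKM, 1 value per gene and hairpin with the duplicate cultures pooled and a lower and upper bound, per the file headers. TopHat2 2.0, Cufflinks 2.1.1 and build mm9 come from the submitters' processing notes. Clusters of the tagged library were deposited with position, gene ID, coverage, fold over the untagged library and q-value, already filtered for enrichment, per the file headers. The cluster caller and aligner are not given in the sources used here. A fold given as infinite was read as no control coverage.

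An outside cluster had 0 bp overlap with any locus on either strand. Locus starts were read as counted from 0. Distances ran between nearest edges. Gene IDs were named through a reference gene table, older symbols through RefSeq GRCm38.p6, from which no coordinate was used. Of the 1021 outside IDs, 954 had a symbol. The design assumed deposited q-values for expression where present. None were used, and log2(FPKM + 1) was instead fitted by limma 3.58.1, trend on, in R 4.3.3, comparing the 2 knockdown with the 2 control hairpins. Genes entered at a mean FPKM of 1 or more, and p-values were adjusted over all 12632 by Benjamini-Hochberg. The fit was also run on simulated data in which every hairpin had the median spread of the controls. The spread between the real knockdown hairpins was not simulated, so that run does not measure the power of the real fit. Differences on the log2(FPKM + 1) scale understate the change of low genes.

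By rule the text names the 10 loci with the most outside clusters within 10 kb, the 10 clusters of highest coverage, the 5 of highest finite fold, the 5 farthest, Rbfox2, called genes, and up to 4 members of 3 gene lists. Other genes were chosen after their values were seen. Members and lists were chosen with earlier results of these data known.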

Additional observations from a re-analysis of the deposited data

How the results depend on the processing

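No paired analysis was possible because the expression columns pool the duplicates of a hairpin and carry no replicate numbers. The share of clusters outside loci was 12.7% with expressed loci only, 7.72% with loci extended by 1 kb, 4.56% (1624 clusters) by 10 kb, and 8.35% without the 3 IDs with the most outside clusters. With expressed loci only, the median distance was 28723 bp and 22.1% lay within 5 kb (33.95% before). Without the 3 IDs, an alternative chosen after seeing the data, 35.8% lay within 5 kb, 49.7% to the right of the nearest locus and 51.3% downstream of the own locus. A fold of at least 2 gave 46.6% downstream. Merging overlapping clusters gave a median coverage of 352 and 46.6% without control coverage. Clusters over 10 kb from every locus had a median coverage of 350, a median fold of 3.77 and 49.5% without control coverage. The median log2 difference of flanked genes was 0.011 with hairpins centred on the median gene, and -0.12 to 0.11 with a hairpin left out. Called flanked genes numbered 1 to 92 with a hairpin left out, 0 with a pseudocount of 0.1 and 0 without the filter on low values, where 35 and 34 had an unadjusted limma p under 0.05. A q-value of at most 0.001, the whole-cluster overlap rule, locus starts counted from 1 and the genes by own ID moved no value beyond its interval or a count by 1.5 times. Without read depth, precision of the FPKM values is known only from the authors' bounds.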

Other observations

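Coverage divided by the finite fold gives the control value that each cluster was compared with. For 594 of the 1743 outside clusters with a finite fold (34.1%) this value was within 1 of 112, and so it was for 33.5% of all such clusters. A further 267 outside clusters had a smaller implied control value, down to 4. The plus strand held 1757 outside clusters (56.1%) and 51.1% of all clusters.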
